A study of Mus musculus with 23 samples.

Results

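The arrays described here are the livers of male mice aged 20 weeks, chosen by the sex and the age in their labels, and they are 5 of the 23 arrays of the series. They hold 3 control (CTL) males and 2 males that lack Pparg in the whole body (PpargΔ/Δ). All mice of the series were labelled with the strain Mixed C57BL6/SV129 and were kept in equal periods of light and dark. The labels name the controls only as control mice, with no allele, and name no treatment. The 6 arrays of females aged 20 weeks and the 6 arrays labelled as males aged 7 weeks, in each case 3 CTL and 3 PpargΔ/Δ, are used only beside the males of 20 weeks. The arrays were of the type Mouse Gene ST of Affymetrix, and signals are given on the log2 scale, on which a difference of 1 is a change of 2-fold. Nothing in the labels says whether the mice of a group came from separate litters, and the p values therefore measure the spread between these mice alone.

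PPARγ is a nuclear receptor that pairs with RXR on DNA and drives the formation of fat cells and the storage of lipid in them. Mice without it have no fat tissue, and fat accumulates in their livers instead, as it does in other lipodystrophies. In a normal liver the related receptor PPARα is the more abundant one and switches on the oxidation of fatty acids. The liver of the adult mouse also differs by sex. Pulses of growth hormone, read through STAT5B, maintain the male pattern of cytochrome P450s, steroid enzymes and urinary proteins, and a steadier supply maintains the female pattern. The question asked of these arrays is which liver genes differ between PpargΔ/Δ and CTL males in adult life. A difference in the liver that comes from the lack of PPARγ in liver cells and a difference that comes from the lack of fat tissue cannot be told apart in this model.

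The signals of the 5 arrays and those of the 6 female arrays had medians between 7.19 and 7.31. The 3 CTL males correlated with each other at 0.991 to 0.993 over all genes and the 2 PpargΔ/Δ males at 0.992. Every array of 20 weeks carried the sex of its label. Xist, which females transcribe from the silenced X, was at most 5.52 and at least 4.96 in the 5 males, and its 6 female signals ran from 12.33 to 12.52. Among the younger mice 1 array went against its label. The array labelled male PpargΔ/Δ replicate 3 of 7 weeks had an Xist signal of 12.31 and a mean of 3.62 over 4 genes of the Y chromosome (Uty, Ddx3y, Eif2s3y and Kdm5d), whereas the other 5 arrays of males of that age lay between 4.32 and 4.96 for Xist and from 8.52 to 8.68 for the Y-linked genes. Values of the males of 7 weeks are therefore given without that array, and with it where stated.

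None of 16 hepatocyte markers passed the test, and their mean signal was 13.41 to 13.43 in the CTL and 13.33 to 13.37 in the PpargΔ/Δ males, so the livers of both genotypes carried the RNA of their main cell type. In a whole liver, fewer cells of a type and less RNA per cell cannot be told apart.

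The signal of Pparg itself was 9.04, 8.96 and 9.17 in the CTL males and 10.38 and 10.65 in the PpargΔ/Δ males. It was thus higher, by 1.46 (SE 0.13, adjusted p = 0.000337), in the mice that lack the receptor. The probes are spread over the whole gene (chromosome 6 of NCBIM37, 115310969 to 115440419), and their joint signal does not show the deletion. Ppara, at 10.80 to 11.17 in the CTL and 10.98 and 11.01 in the PpargΔ/Δ males, and the partner Rxra, with a difference of -0.07 (SE 0.09), did not pass the test. Pparg was the single called gene among 14 receptors, partners and cofactors of this family.

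Between the genotypes, 224 of 22061 genes were higher in PpargΔ/Δ males (1.02% of all genes) and 157 were lower (0.712%) at an adjusted p under 0.05 in limma. The median difference over all genes was -0.02, with 9770 differences above and 12282 below 0. The calls and signs counted below for gene lists are to be read beside these values over all genes. Each of the 381 called genes had both PpargΔ/Δ arrays outside the range of the 3 CTL arrays. With groups of this size many genes do, since 12.6% of all genes had both PpargΔ/Δ arrays above and 16.3% had both below every CTL array. The median called increase was 1.77-fold and the median called decrease 1.64-fold, and 76 increases and 35 decreases reached 2-fold. The calls rest on a spread shared with the 6 female arrays: fitted on the 5 male arrays alone, 59 genes were higher and 43 lower. With 1 of the 5 arrays left out in turn (lowest without PpargΔ/Δ replicate 1) the counts lay between 123 and 250 higher and between 78 and 199 lower, and 53 of the 224 and 36 of the 157 genes stayed called whichever array was left out.

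**Figure D1:**
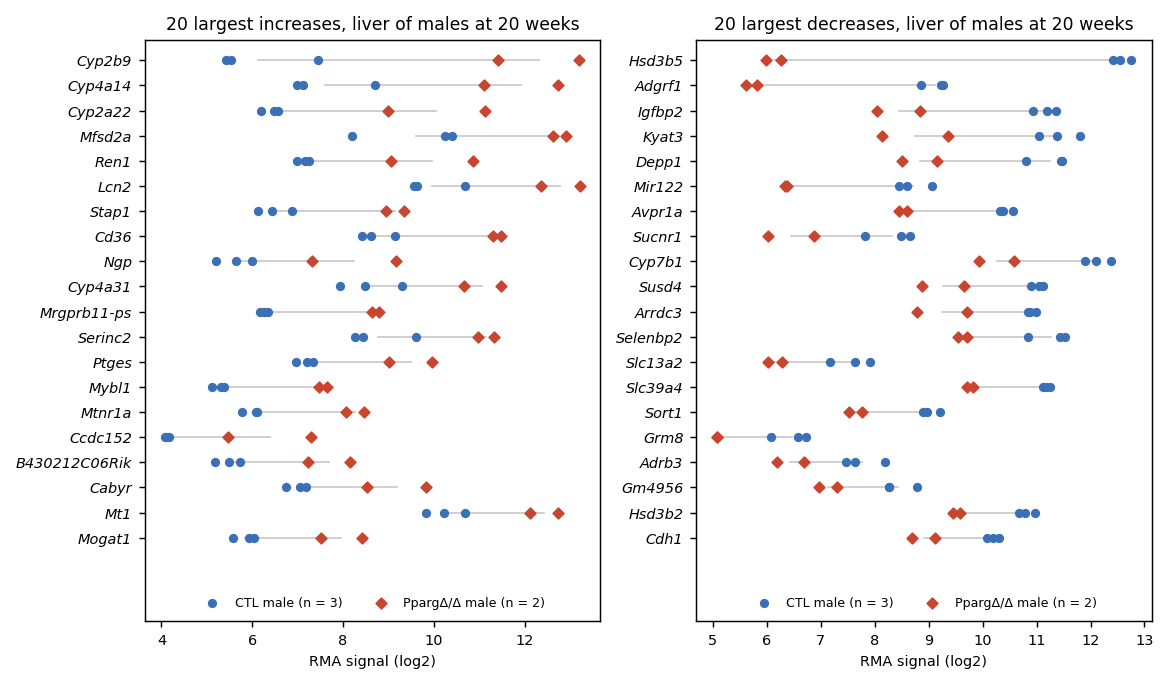
Signal (log2) of the 20 genes with the largest called increases (left) and the 20 with the largest called decreases (right) in each liver of males aged 20 weeks. Circles are the 3 CTL males, diamonds the 2 PpargΔ/Δ males and lines join the group means; Hsd3b5 fell from 12.43 or more to 6.26 or less and Cyp2b9 rose from 7.45 or less to 11.42 or more.

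The gene that differed by the most was Hsd3b5, which encodes a steroid dehydrogenase of the male mouse liver. Its signal was 12.75, 12.43 and 12.54 in the CTL males and 5.99 and 6.26 in the PpargΔ/Δ males, a fall by 6.45 (SE 0.21, 87.3-fold, adjusted p = 2.89e-07). The PpargΔ/Δ males thus reached the level of the CTL females, whose mean Hsd3b5 signal was 5.90 ± 0.28 (SD, n = 3). Hsd3b5 lies on chromosome 3 (98422557 to 98501719 of NCBIM37, minus strand) in a row of related genes that did not all fall alike. All 7 measured Hsd3b genes had differences below 0, and 3 passed the test. Over all genes 0.712% were called lower, and 12282 differences were below and 9770 above 0. Hsd3b2 fell by 1.29 (SE 0.15, adjusted p = 0.00174), and Hsd3b4, whose probes share sequence with other genes, fell by 0.97 (SE 0.18, adjusted p = 0.0204). Hsd3b3 was 11.84, 11.86 and 11.88 in the CTL and 11.68 and 11.24 in the PpargΔ/Δ males and did not pass the test, and neither did Hsd3b1, Hsd3b6 and Hsd3b7, with differences of -0.20, -0.24 and -0.27. The call of Hsd3b4 was lost without CTL replicate 3, PpargΔ/Δ replicate 1 or PpargΔ/Δ replicate 2, with adjusted p up to 0.0985.

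Of 26 genes known to be male-biased in mouse liver, 5 were lower (0.712% over all genes) and none was higher, with a median difference of -0.24. Beside Hsd3b5 these were Cyp7b1, Selenbp2, Susd4 and Cyp2u1. Cyp7b1, the oxysterol hydroxylase of the acidic pathway of bile acid synthesis, was 12.10, 11.90 and 12.38 in the CTL males and 9.94 and 10.59 in the PpargΔ/Δ males (difference -1.86, SE 0.18, adjusted p = 0.000485). Selenbp2, a selenium-binding protein, fell by 1.64 (SE 0.17, adjusted p = 0.000972), Susd4, an inhibitor of complement, fell by 1.75 (SE 0.22, adjusted p = 0.00283) and Cyp2u1, a fatty acid hydroxylase, fell by 1.08 (SE 0.13, adjusted p = 0.00175). All 5 calls held whichever array was left out. Other male-biased genes did not pass the test. The arachidonic acid hydroxylases Cyp4a12a and Cyp4a12b differed by 0.10 (SE 0.31) and 0.41 (SE 0.31), Cyp2d9 by 0.05 and the urinary protein Mup20, whose probes share sequence with related genes, by -0.12.

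Of 32 measured genes known to be female-biased 6 were higher (1.02% over all genes), none was lower and 26 did not pass the test. The median difference was 0.25, with 7 differences below 0. The largest increase of all genes was that of Cyp2b9, a cytochrome P450 of the female mouse liver. It was 5.52, 5.43 and 7.45 in the CTL males and 13.20 and 11.42 in the PpargΔ/Δ males, a rise by 6.17 (SE 0.57, 72.2-fold, adjusted p = 0.000432). CTL replicates 1 and 2 were close to each other and CTL replicate 3 lay above both, and all 3 were below the PpargΔ/Δ males. The neighbouring gene Cyp2b13 was 4.58, 4.89 and 4.69 in the CTL males and 8.11 and 5.64 in the PpargΔ/Δ males. Its 2 PpargΔ/Δ arrays lay above the CTL arrays but apart from each other, and the test was not passed (difference 2.16, SE 0.53, adjusted p = 0.0682). In the CTL females both genes were high, at 13.53 ± 0.09 for Cyp2b9 and 12.54 ± 0.22 for Cyp2b13 (SD, n = 3). Cyp2b10, the member of the subfamily that drugs induce, ranged from 6.47 to 9.17 in the CTL males and was 10.58 and 7.86 in the PpargΔ/Δ males, with overlapping groups.

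The starts of Cyp2b9 and Cyp2b13 are shown because these neighbouring genes are both female-biased and the sequence before them is nearly the same. The differences of the 2 genes were not tested against each other. The windows run from 250 bases before to 50 bases after the start of the gene in RefSeq (GRCm38.p6), for Cyp2b9 at chr7:26173159-26173458 and for Cyp2b13 at chr7:26061245-26061544, both on the plus strand. They are identical at 298 of 300 positions (99.3%), and capitals mark the 2 positions that differ, T48C and C104T, with the base of Cyp2b9 first and positions counted from 1 at the 5′ end of the window.
Cyp2b9: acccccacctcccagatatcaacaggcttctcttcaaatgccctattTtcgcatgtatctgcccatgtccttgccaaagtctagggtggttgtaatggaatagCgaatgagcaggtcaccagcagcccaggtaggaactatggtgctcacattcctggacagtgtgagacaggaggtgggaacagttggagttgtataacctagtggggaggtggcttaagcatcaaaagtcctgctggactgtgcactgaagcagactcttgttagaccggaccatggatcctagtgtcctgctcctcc
Cyp2b13: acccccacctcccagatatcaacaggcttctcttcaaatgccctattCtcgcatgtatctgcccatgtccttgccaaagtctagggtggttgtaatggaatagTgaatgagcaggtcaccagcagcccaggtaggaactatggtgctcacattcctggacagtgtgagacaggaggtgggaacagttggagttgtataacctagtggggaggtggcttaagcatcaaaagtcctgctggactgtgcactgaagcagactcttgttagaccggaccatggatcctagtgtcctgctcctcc
Both windows hold the half-site AGGTCA, searched on both strands, 138 bases before the start, as do 16.3% of the 32851 promoters of the same length. The match is a description of these letters and no evidence of binding.

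The other called members of the female-biased list were Cyp17a1, Slc22a27, Cyp2c38, Cyp2c39 and Trim24. Cyp17a1, an enzyme of steroid synthesis, was 10.31, 10.08 and 10.54 in the CTL males and 12.26 and 12.19 in the PpargΔ/Δ males (difference 1.92, SE 0.13, adjusted p = 6.12e-05). Slc22a27, an organic anion transporter, rose by 1.86 (SE 0.15, adjusted p = 0.000162). Both separated the genotypes by more than the spread within either group. The epoxygenases Cyp2c38 and Cyp2c39 rose by 1.21 (SE 0.26, adjusted p = 0.0417) and 0.90 (SE 0.17, adjusted p = 0.0246), and Trim24, a nuclear cofactor, by 0.75 (SE 0.15, adjusted p = 0.0283). These last 3 calls were lost when an array was left out, Cyp2c38 without CTL replicate 1 or 3 or either PpargΔ/Δ array (adjusted p up to 0.207), Cyp2c39 without either PpargΔ/Δ array (up to 0.104) and Trim24 without CTL replicate 1 or PpargΔ/Δ replicate 2 (up to 0.161). Outside the list, Cyp2a22 was 6.20, 6.47 and 6.57 in the CTL and 11.13 and 8.99 in the PpargΔ/Δ males, a rise by 3.64 (SE 0.50, 12.5-fold, adjusted p = 0.00495), and its mean was 11.15 ± 0.66 (SD, n = 3) in CTL females.

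How far the PpargΔ/Δ males had moved towards the CTL females differed from gene to gene, and in some genes the difference pointed away from them. Of the 32 female-biased genes 25 were at least 2-fold higher in CTL females than in CTL males on these arrays. In 7 of the 25 the mean of the PpargΔ/Δ males had crossed over 50% of the distance, and the median was 16%. The 7 include Cyp2b10 (81.5%), which was not called (adjusted p = 0.468). In 11 the share was under 10%, which includes genes with a share below 0, such as Cux2 (-3.58%), that pointed away from the CTL females. Cyp2b9 had crossed 83.5%, Cyp2c38 80.9% and Cyp17a1 77.1%. Sult2a1, a bile acid and steroid sulfotransferase, had crossed 0.055%, with signals of 4.03, 5.20 and 4.09 in the CTL and 4.70 and 4.19 in the PpargΔ/Δ males against a mean of 9.71 ± 0.31 (SD, n = 3) in CTL females. Cux2, a female-biased repressor, was 7.07, 7.14 and 7.32 in the CTL and 7.15 and 7.06 in the PpargΔ/Δ males, so that the groups overlapped. Of 16 male-biased genes with a gap of at least 2-fold, 7 had crossed over 50% and 4 under 10%, with a median of 35.4%. The 7 include Serpina4-ps1 (177%) and Slco1a1 (84.8%), which were not called (adjusted p = 0.062 and 0.0965). The 4 include Cyp4a12a, Cyp4a12b and Cyp2d9, whose shares were below 0. These shares are distances on the log2 scale and carry no test. Both distances of a share start from the same 3 CTL males, so the spread of those mice enters both.

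**Figure D2:**
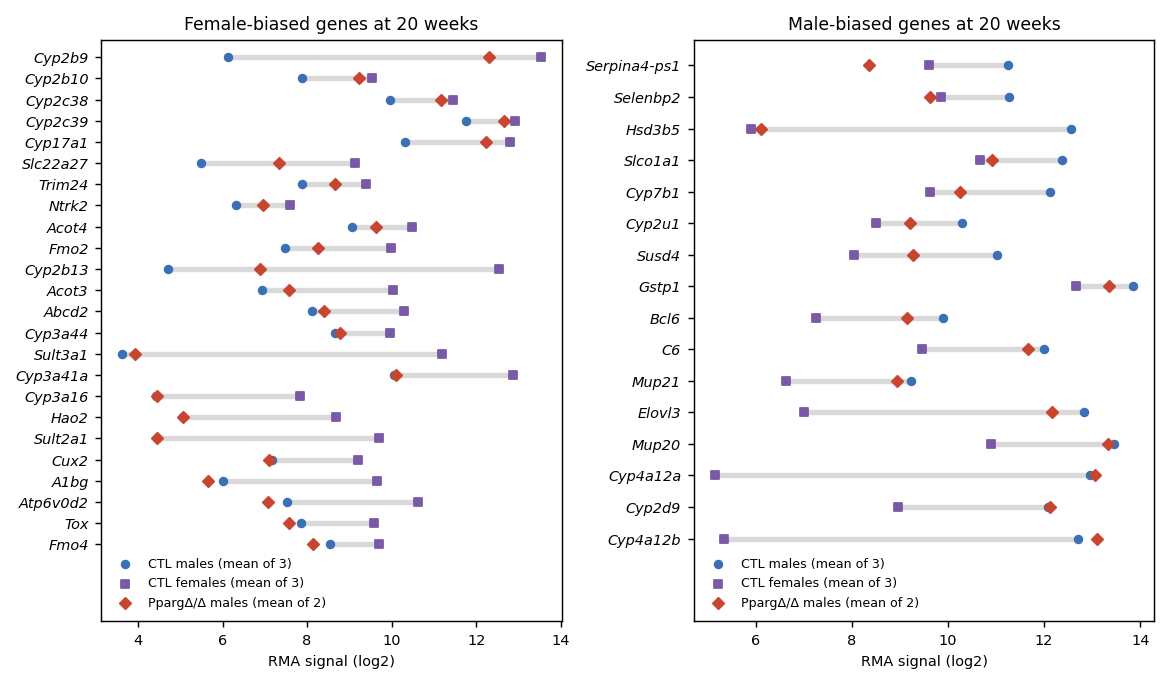
Mean signal (log2) of known female-biased (left) and male-biased (right) liver genes that differed by at least 2-fold between CTL females (squares, n = 3) and CTL males (circles, n = 3), with the PpargΔ/Δ males (diamonds, n = 2), at 20 weeks. Grey bars span the 2 CTL means and genes are ordered by the share of that span the PpargΔ/Δ males had crossed, which was 83.5% for Cyp2b9 and 0.055% for Sult2a1.

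Growth hormone maintains these patterns through its receptor and STAT5B. Of 22 genes of this axis and of the steroid receptors, 3 were lower (0.712% over all genes) and 1 was higher (1.02% over all genes). The median difference was -0.05. Igfbp2, a circulating protein that binds insulin-like growth factors, was 11.36, 10.94 and 11.20 in the CTL males and 8.84 and 8.05 in the PpargΔ/Δ males (difference -2.72, SE 0.23, 6.61-fold, adjusted p = 0.000206). Lifr, the receptor of leukaemia inhibitory factor, fell by 0.89 (SE 0.15, adjusted p = 0.0109), a call lost without PpargΔ/Δ replicate 1 (adjusted p = 0.0706). Stat5b fell from 9.93, 10.06 and 9.90 to 9.24 and 9.56 (difference -0.57, SE 0.12, adjusted p = 0.0337), and its call was lost without any of the 3 CTL arrays or without PpargΔ/Δ replicate 1, with adjusted p up to 0.198. Esr1, the oestrogen receptor α, rose from 9.07, 8.99 and 8.92 to 9.64 and 9.84 (difference 0.75, SE 0.12, adjusted p = 0.0103), a call lost without PpargΔ/Δ replicate 2 (adjusted p = 0.0682). The receptor Ghr, with a difference of -0.01 (SE 0.09), and the hormone Igf1, with 0.00 (SE 0.08), did not pass the test. Not all uncalled members were near 0: Socs2 differed by -1.14 (SE 0.41, adjusted p = 0.208). Of the 22 differences 9 were above and 13 below 0.

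Of 32 targets of PPARα 7 were higher (1.02% over all genes), 4 of them Cyp4a genes, none was lower and 25 did not pass the test. The median difference was 0.24, with 24 differences above and 8 below 0. Cyp4a14, a fatty acid ω-hydroxylase, was 6.99, 8.70 and 7.12 in the CTL males and 12.73 and 11.10 in the PpargΔ/Δ males (difference 4.31, SE 0.70, 19.9-fold, adjusted p = 0.0112). CTL replicate 2 had the highest signal of the CTL males for Cyp4a14 and also for Cyp4a10, at 10.94 against 9.65 and 9.96, and for Cyp4a31, at 9.31 against 7.94 and 8.48. Cyp4a10 rose by 2.02 (SE 0.40, adjusted p = 0.0284), Cyp4a31 by 2.49 (SE 0.49, adjusted p = 0.0289) and Cyp4a32 by 2.03 (SE 0.36, adjusted p = 0.017). The probes of Cyp4a32 share sequence with other genes, and the 4 genes are close relatives that lie side by side on chromosome 4, so they are not 4 separate observations. The calls of Cyp4a10 and Cyp4a31 were also lost without CTL replicate 1 or 3, that of Cyp4a32 without CTL replicate 1 and that of Cyp4a10 without PpargΔ/Δ replicate 2. Without PpargΔ/Δ replicate 1 all 4 Cyp4a calls were lost, at adjusted p of 0.0807 for Cyp4a14, 0.143 for Cyp4a10, 0.160 for Cyp4a31 and 0.107 for Cyp4a32, and the list kept 1 call.

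That call was Vnn1, a pantetheinase, at 8.25, 8.76 and 8.83 in the CTL and 10.72 and 10.56 in the PpargΔ/Δ males (difference 2.03, SE 0.24, adjusted p = 0.00192), which held whichever array was left out. The mitochondrial carrier Ucp2 rose by 0.99 (SE 0.20, adjusted p = 0.0346) and the fatty aldehyde dehydrogenase Aldh3a2 by 0.81 (SE 0.15, adjusted p = 0.0199), and both calls were lost without CTL replicate 1 or either PpargΔ/Δ array (adjusted p up to 0.150 and 0.114), that of Ucp2 also without CTL replicate 2. Other members of the list did not pass the test: Cpt1a, which admits fatty acids to mitochondria, differed by 0.30 (SE 0.09, adjusted p = 0.118) and Ehhadh, of the peroxisomal pathway, by -0.24 (SE 0.19). Without CTL replicate 1 the list had 2 called members.

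Of 23 known PPARγ targets of fat cells and fatty liver, 3 were higher (1.02% over all genes) and none was lower. The median difference was 0.00, with 12 differences above and 11 below 0. The lowest, that of Fabp5 at -2.05 (SE 0.50), did not pass the test (adjusted p = 0.068). Cd36, a fatty acid translocase, was 8.42, 8.61 and 9.15 in the CTL and 11.48 and 11.30 in the PpargΔ/Δ males (difference 2.66, SE 0.21, 6.32-fold, adjusted p = 0.000153). Mogat1, which makes diacylglycerol, was 5.58, 6.04 and 5.94 against 8.41 and 7.52 (difference 2.11, SE 0.36, adjusted p = 0.015), a call lost without PpargΔ/Δ replicate 1 (adjusted p = 0.0994). Fabp4, the fatty acid binding protein of fat cells and macrophages, rose by 1.03 (SE 0.20, adjusted p = 0.0277), and its call was lost with any 1 of the 5 arrays left out (adjusted p up to 0.136). Genes that fat cells make in quantity were low in both genotypes. Adipoq was 5.03, 4.56 and 4.72 in the CTL and 4.64 and 4.82 in the PpargΔ/Δ males, and Plin1 was 7.05, 6.73 and 6.85 against 6.89 and 6.84.

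The start of Cd36 is shown because PPARγ is known to act on this gene, with the same window of RefSeq (GRCm38.p6, chr5:17835847-17836146, minus strand). Capitals mark the 1 match to AGGTCA, here read as its reverse complement.
Cd36: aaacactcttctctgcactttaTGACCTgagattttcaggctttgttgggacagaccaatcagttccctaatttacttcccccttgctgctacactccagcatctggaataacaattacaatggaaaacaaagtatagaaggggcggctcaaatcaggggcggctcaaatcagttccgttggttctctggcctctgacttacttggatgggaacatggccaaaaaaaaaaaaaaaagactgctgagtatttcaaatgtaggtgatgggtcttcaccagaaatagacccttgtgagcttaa
The match lies 228 bases before the start and is a description of the letters, not a measured site. The search was for the single half-site and not for a repeat of it. Of 12 genes looked for among the RefSeq promoters 8 had an entry, and Fabp4, Cyp4a10, Cyp4a14 and Cyp4a31 had none. Among the called genes with an entry, 20.6% of the higher and 21.3% of the lower ones had at least 1 AGGTCA in the window, against 16.4% of all measured genes.

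Of 23 genes of de novo lipogenesis Srebf1, the transcription factor that drives the pathway, was the single call, lower at 9.95 and 9.87 than the 10.78, 10.96 and 10.68 of the CTL males (difference -0.89, SE 0.16, adjusted p = 0.0157). The call was lost without either PpargΔ/Δ array (adjusted p up to 0.0784). Its targets Fasn and Scd1 differed by -0.21 (SE 0.22) and -0.27 (SE 0.13), neither past the test. Of 26 genes of triglyceride synthesis and lipid droplets Mogat1 alone passed, and the droplet coat Plin2 differed by 0.27 and the lipase inhibitor G0s2 by -0.28. None of 25 genes of cholesterol synthesis was called, with differences between -0.51 and 0.49. Among 21 genes of lipoproteins, Apoa4 was higher by 1.69 (SE 0.25, adjusted p = 0.00706) and the sorting receptor Sort1 was lower (difference -1.39, SE 0.17, adjusted p = 0.00216). Both calls held whichever array was left out, while Apob differed by -0.02 (SE 0.08). These lists had at most 2 calls each, beside 1.02% higher and 0.712% lower over all genes. Nothing particular to them is read from these counts. Outside these lists, Mfsd2a, the carrier of lysophospholipids with docosahexaenoic acid, was 8.20, 10.24 and 10.39 in the CTL and 12.91 and 12.62 in the PpargΔ/Δ males (difference 3.15, SE 0.54, adjusted p = 0.0154), a call lost without either PpargΔ/Δ array (adjusted p up to 0.082). Apom, an apolipoprotein that carries sphingosine phosphate, fell by 1.06 (SE 0.11, adjusted p = 0.00085).

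**Figure D3:**
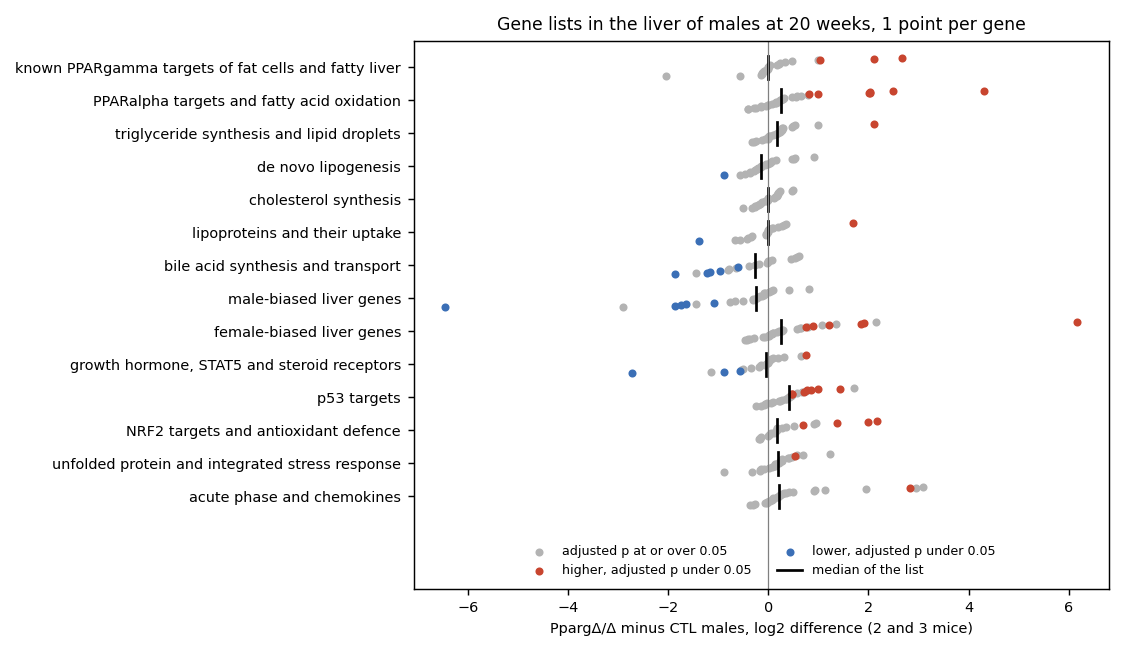
Difference between PpargΔ/Δ (n = 2) and CTL (n = 3) males in log2 for each measured gene of 14 lists. Points are genes, coloured where the adjusted p was under 0.05, and black bars are list medians, which ran from -0.27 for bile acid synthesis and transport to 0.41 for p53 targets.

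Over 21 measured genes of bile acid synthesis and transport the median difference was -0.27, with 6 differences above 0. Of the 21 genes 5 were lower (0.712% over all genes), none was higher and 16 did not pass the test. Beside Cyp7b1 these were Cyp2c70, which makes the muricholic acids of the mouse, Abcg8, a part of the sterol exporter of the canalicular membrane, Abcc3, the exporter of the sinusoidal side, and Abcb11, the bile salt export pump. Cyp2c70 was 12.99, 13.18 and 13.37 in the CTL and 11.59 and 12.33 in the PpargΔ/Δ males (difference -1.22, SE 0.22, adjusted p = 0.0187). Abcg8 was 10.32, 10.46 and 10.82 against 9.45 and 9.31 (difference -1.16, SE 0.17, adjusted p = 0.00674), and its partner Abcg5, which shares the promoter region, differed by -0.81 (SE 0.20, adjusted p = 0.0681). Abcc3 fell by 0.97 (SE 0.21, adjusted p = 0.0401) and Abcb11 fell by 0.60 (SE 0.13, adjusted p = 0.0428). Cyp7a1, the rate-limiting enzyme of the classical pathway, overlapped between the genotypes and varied widely among CTL males, at 12.67, 12.07 and 10.22 against 12.75 and 11.78. The calls of Cyp7b1 and Abcg8 held whichever array was left out. Cyp2c70 was lost without PpargΔ/Δ replicate 1 (adjusted p = 0.106), and Abcc3 and Abcb11 without any of the 3 CTL arrays and without PpargΔ/Δ replicate 2 and replicate 1 respectively (adjusted p up to 0.188 and 0.235), and the list had 3 calls without CTL replicate 2 or CTL replicate 3.

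Of 30 targets of p53, the factor that answers DNA damage, 7 were higher (1.02% over all genes), none was lower and 23 did not pass the test. On the 5 male arrays alone 2 were called, and 3 without moderation of the variances. The median difference was 0.41, the highest of the lists in the plot of list members, and 6 differences were below 0. Eda2r, a receptor of the tumour necrosis factor family, was 5.63, 5.56 and 5.72 in the CTL and 7.12 and 7.04 in the PpargΔ/Δ males (difference 1.44, SE 0.14, 2.72-fold, adjusted p = 0.000485). Ccng1, a cyclin of the p53 response, was 10.47, 10.66 and 10.86 against 11.74 and 11.57 (difference 0.99, SE 0.12, adjusted p = 0.00196), and Mdm2, the ligase that degrades p53, 9.05, 9.17 and 9.39 against 10.01 and 10.11 (difference 0.86, SE 0.12, adjusted p = 0.00452). In each of these genes the genotypes stood apart, as in every called gene, and the 3 calls held whichever array was left out. Sesn2, Ephx1, Aen and Zmat3 rose by between 0.47 and 0.78, and each of them lost its call with 3 or 4 of the 5 arrays left out in turn, with adjusted p up to 0.126, 0.146, 0.155 and 0.245, so that the list kept 3 calls without CTL replicate 1 and 4 without CTL replicate 2, PpargΔ/Δ replicate 1 or PpargΔ/Δ replicate 2. Cdkn1a, the cell cycle inhibitor most used as a p53 marker, was 9.09, 9.94 and 10.83 in the CTL and 11.45 and 11.88 in the PpargΔ/Δ males. Its groups did not overlap, but the CTL males were wide apart and the test was not passed (difference 1.71, SE 0.45, adjusted p = 0.089). At 7 weeks 7 of the 30 genes were higher, beside 3.24% over all genes. In the females of 20 weeks 1 was lower and none higher, beside 0.970% lower and 1.31% higher over all genes. Of 26 genes of cell division the single call was a cluster annotated as Tk1 (difference -0.80), which the files place on chromosome 8 and whose probes share sequence with other genes, so that its value cannot be read as that of Tk1. The call was lost without either PpargΔ/Δ array (adjusted p up to 0.0917). Of the 26 differences 22 were above 0, beside 9770 above and 12282 below 0 over all genes.

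Of 23 genes of NRF2 and antioxidant defence 4 were higher (1.02% over all genes) and none was lower, with a median difference of 0.17. The metallothioneins, small proteins that bind zinc and copper, were in front. Mt1 was 9.83, 10.69 and 10.22 in the CTL and 12.11 and 12.75 in the PpargΔ/Δ males (difference 2.18, SE 0.26, 4.54-fold, adjusted p = 0.00216), and Mt2 was 10.88, 11.69 and 11.78 against 13.23 and 13.64 (difference 1.99, SE 0.22, 3.96-fold, adjusted p = 0.0014). Both calls held whichever array was left out. Mt3 and Mt4, which lie beside them on chromosome 8, differed by -0.07 (SE 0.13) and 0.14 (SE 0.12). Gpx3, a glutathione peroxidase, rose by 1.38 (SE 0.29, adjusted p = 0.0349) and Nfe2l2, which encodes NRF2, by 0.70 (SE 0.15, adjusted p = 0.0369), and the first was lost without CTL replicate 1, CTL replicate 2 or PpargΔ/Δ replicate 2 (adjusted p up to 0.116) and the second without CTL replicate 1, CTL replicate 3 or either PpargΔ/Δ array (up to 0.159), so that the list had 2 calls without CTL replicate 1. The NRF2 targets Nqo1 and Hmox1 were 0.95 (adjusted p = 0.0592) and 0.92 (adjusted p = 0.102) higher and did not pass. Slc39a4, a zinc importer, fell from 11.12, 11.24 and 11.17 to 9.83 and 9.71 (difference -1.41, SE 0.18, adjusted p = 0.00284).

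The starts of Mt1 and Mt2 are shown because both genes moved together. Metallothionein genes of the mouse are known to answer zinc through metal response elements bound by MTF-1. The windows are those of RefSeq (GRCm38.p6), for Mt1 chr8:94178839-94179138 and for Mt2 chr8:94172368-94172667, both on the plus strand. Capitals mark matches on either strand to the core of the element, TGCACNC or TGCGCNC, a search chosen after the values were seen.
Mt1: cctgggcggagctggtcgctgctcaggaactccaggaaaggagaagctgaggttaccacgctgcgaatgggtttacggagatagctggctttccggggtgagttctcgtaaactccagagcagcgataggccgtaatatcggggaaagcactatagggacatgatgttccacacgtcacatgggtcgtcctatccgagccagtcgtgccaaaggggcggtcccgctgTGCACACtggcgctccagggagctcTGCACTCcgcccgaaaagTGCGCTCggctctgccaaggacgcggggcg
Mt2: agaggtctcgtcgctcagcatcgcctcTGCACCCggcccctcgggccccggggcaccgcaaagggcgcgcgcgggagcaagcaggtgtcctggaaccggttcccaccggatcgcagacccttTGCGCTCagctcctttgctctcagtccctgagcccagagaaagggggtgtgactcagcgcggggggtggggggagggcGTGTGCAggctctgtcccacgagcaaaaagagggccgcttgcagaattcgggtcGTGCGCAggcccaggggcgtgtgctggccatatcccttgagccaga
Mt1 had 3 matches, 1 that starts 23 bases before the start of the gene and 2 after it, at positions 3 and 21. Mt2 had 4 matches, 3 that lie 223, 128 and 50 bases before the start and 1 after it, at position 5. Of all promoters of this length 25.7% had at least 1, 1.97% at least 3 and 0.517% at least 4. A match is a description of the letters and not a measured site.

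Several of the largest falls were in receptors and enzymes outside the lists. Adgrf1, an adhesion G protein-coupled receptor, was 9.27, 8.85 and 9.22 in the CTL and 5.62 and 5.82 in the PpargΔ/Δ males (difference -3.40, SE 0.17, 10.5-fold, adjusted p = 1.04e-05). Kyat3, a kynurenine aminotransferase, was 11.04, 11.37 and 11.80 against 9.36 and 8.13 (difference -2.66, SE 0.31, adjusted p = 0.00165). Depp1, a small protein that rises in fasting, was 11.47, 11.45 and 10.81 against 8.51 and 9.15 (difference -2.41, SE 0.35, adjusted p = 0.0063). Receptors for small ligands were among them: Avpr1a, for vasopressin, fell by 1.90 (SE 0.22, adjusted p = 0.0019). Sucnr1, for succinate, fell by 1.87 (SE 0.34, adjusted p = 0.0201). Adrb3, the β-adrenergic receptor best known from fat, fell by 1.32 (SE 0.20, adjusted p = 0.00897). Sucnr1 was lost without CTL replicate 1, CTL replicate 2 or PpargΔ/Δ replicate 2 (adjusted p up to 0.122) and Adrb3 without PpargΔ/Δ replicate 2 (0.0585). Slc13a2, a citrate and succinate carrier, fell by 1.42 (SE 0.22, adjusted p = 0.00912) and Cdh1, the cadherin of epithelia, fell by 1.28 (SE 0.22, adjusted p = 0.015), the first lost without PpargΔ/Δ replicate 2 (0.0571) and the second without PpargΔ/Δ replicate 1 (0.100).

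Among the largest increases outside the lists, Ren1, which encodes renin, was 7.16, 6.98 and 7.25 in the CTL and 10.87 and 9.06 in the PpargΔ/Δ males (difference 2.84, SE 0.41, 7.16-fold, adjusted p = 0.00633). Mtnr1a, a melatonin receptor, was 6.09, 5.77 and 6.10 against 8.47 and 8.08 (difference 2.28, SE 0.19, adjusted p = 0.000211). Mybl1, a transcription factor of the MYB family, was 5.32, 5.38 and 5.11 against 7.64 and 7.47 (difference 2.29, SE 0.14, adjusted p = 3.55e-05), and Nt5e, the ectoenzyme CD73 that makes adenosine, 8.06, 8.05 and 7.79 against 9.59 and 9.75 (difference 1.71, SE 0.12, adjusted p = 5.7e-05). In these 4 genes, as in every called increase, both PpargΔ/Δ males lay above every CTL male, and the 4 calls held whichever array was left out. Ptges, the inducible synthase of prostaglandin E, was 6.97, 7.20 and 7.33 against 9.01 and 9.97 (difference 2.32, SE 0.21, adjusted p = 0.000422) and was the single call among 19 genes of arachidonic acid and the eicosanoids, where Hpgds and Tbxas1 differed by 0.38 and -0.27. Slc22a3, an organic cation transporter, rose by 2.04 (SE 0.19, adjusted p = 0.000485).

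Of 318 clusters named for microRNA genes, a group put together after the values were seen, 4 were lower and none was higher, beside 0.712% lower over all genes. Of the 318 differences 243 were below 0 with a median of -0.09, while over all genes 12282 were below and 9770 above 0 with a median of -0.02. Nothing particular to microRNA genes is read from these counts. The array reads RNA of the hairpin or its host transcript and not the mature microRNA. Mir122, the most abundant microRNA of the liver, had a cluster signal of 8.60, 8.45 and 9.06 in the CTL and 6.37 and 6.34 in the PpargΔ/Δ males (difference -2.35, SE 0.29, 5.09-fold, adjusted p = 0.00217), whichever array was left out. Mir29b-2 was 6.07, 6.69 and 5.99 against 5.16 and 5.54 (difference -0.90, SE 0.19, adjusted p = 0.0418), Mir192 6.23, 6.19 and 6.32 against 5.34 and 5.73 (difference -0.71, SE 0.14, adjusted p = 0.0274) and Mir378a fell by 0.69 (SE 0.12, adjusted p = 0.0154). These 3 had dim signals and lost their calls with 1 or more arrays left out: Mir29b-2 without CTL replicate 1 or either PpargΔ/Δ array (adjusted p up to 0.218), Mir192 without any CTL array or PpargΔ/Δ replicate 1 (0.168) and Mir378a without PpargΔ/Δ replicate 2 (0.100).

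The mature forms of 2 of these genes are shown with the seed, bases 2 to 8, in capitals, since the seed sets which messengers a microRNA can pair with. They are from RefSeq (GRCm38.p6), and the seeds differ.
mmu-miR-29b-3p: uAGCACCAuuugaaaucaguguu
mmu-miR-192-5p: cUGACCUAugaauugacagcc

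Of 15 markers of neutrophils and their precursors 2 were higher (1.02% over all genes) and none was lower. Of the 15 differences 14 were above 0, with a median of 0.64. Ngp, a granule protein, was 6.0, 5.19 and 5.64 in the CTL and 7.32 and 9.16 in the PpargΔ/Δ males (difference 2.63, SE 0.42, adjusted p = 0.0107), and Mmp8, the collagenase of neutrophils, rose by 1.42 (SE 0.29, adjusted p = 0.0332), a call lost without CTL replicate 1, CTL replicate 2 or PpargΔ/Δ replicate 2 (adjusted p up to 0.158). The mean signal of the 15 markers was 5.94 to 6.01 in the CTL males, 6.29 in PpargΔ/Δ replicate 1 and 7.23 in PpargΔ/Δ replicate 2. None of 22 macrophage and Kupffer cell markers, 24 of stellate cells and fibrosis, 11 of sinusoidal endothelium, 7 of MHC class II and 11 of acinar pancreas was called. None of 16 markers of T and B lymphocytes was called either, although all 16 differences were below 0, between -0.87 and -0.06. Their means were 6.38 to 6.50 in the CTL and 6.02 to 6.17 in the PpargΔ/Δ males. Over all genes 12282 differences were below and 9770 above 0. The markers of a list were measured in the same 5 mice, so their signs are not separate observations. Of 21 red cell precursor genes Car2 was called, higher by 0.83, a call lost without PpargΔ/Δ replicate 2 (adjusted p = 0.088).

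**Figure D4:**
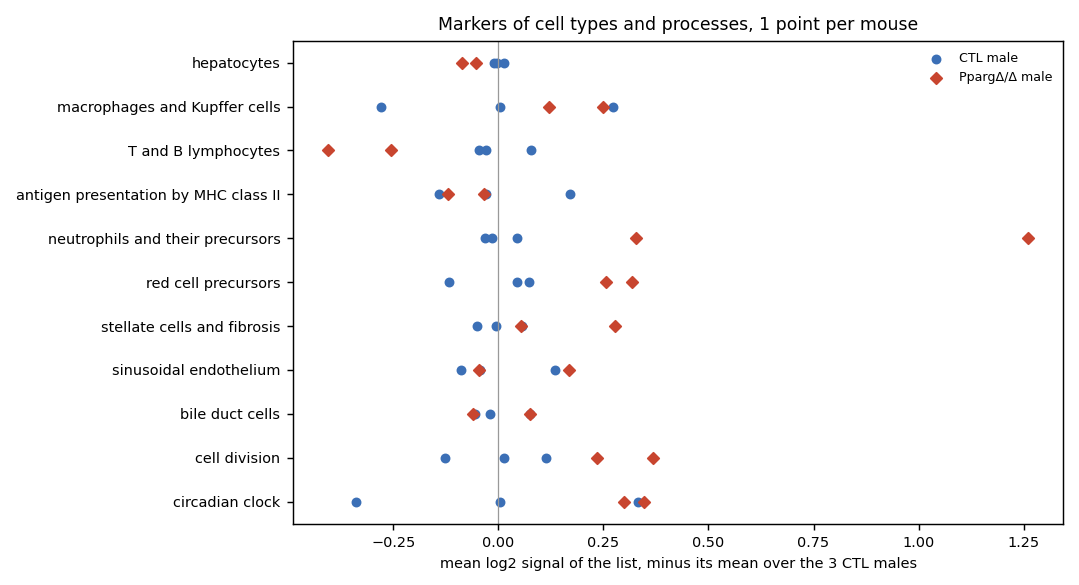
Mean log2 signal of marker lists in each liver of males aged 20 weeks, minus the mean of the list over the 3 CTL males (circles CTL, diamonds PpargΔ/Δ). The 2 PpargΔ/Δ males lie above the CTL males for neutrophils, red cell precursors and cell division and below them for T and B lymphocytes and hepatocytes.

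Of 29 acute phase and chemokine genes 1 was called, beside 1.02% higher and 0.712% lower over all genes. Lcn2, a siderophore-binding protein that hepatocytes and neutrophils make, was 9.62, 9.55 and 10.70 in the CTL and 12.36 and 13.21 in the PpargΔ/Δ males (difference 2.83, SE 0.49, 7.10-fold, adjusted p = 0.0157), and its call was lost without CTL replicate 2 or PpargΔ/Δ replicate 2 (adjusted p up to 0.0963). The serum amyloids Saa1 and Saa2 were 8.54 and 10.55, and 10.61 and 12.60, in the 2 PpargΔ/Δ males against at most 7.19 and 9.31 in the CTL males, and neither passed: the difference was 3.09 (SE 0.89, adjusted p = 0.118) for Saa1 and 2.95 (SE 0.82, adjusted p = 0.103) for Saa2. PpargΔ/Δ replicate 2, the mouse with the higher neutrophil markers, was the higher one in Lcn2, Saa1 and Saa2. The list as a whole did not share this gap. Its mean signal over the 29 genes was 9.64 and 9.74 in the 2 PpargΔ/Δ males and 8.94 to 9.36 in the CTL males. The part of other cells in these differences was not tested.

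Nothing particular to the remaining lists is read from their few calls, beside 1.02% higher and 0.712% lower over all genes. The list of the unfolded protein and integrated stress response had 1 call of 26, Ddit3 (higher by 0.54, lost without either PpargΔ/Δ array, adjusted p up to 0.0952). Glucose metabolism had 1 of 32, Fbp1, the gluconeogenic bisphosphatase, higher by 0.58 (SE 0.09, adjusted p = 0.00834). Drug metabolism had 2 of 45, Ephx1 and the carboxylesterase Ces2a, which fell by 1.09 (SE 0.13, adjusted p = 0.00177). The fetal and tumour genes had 1 of 11, Ly6d, higher by 1.46 (SE 0.32, adjusted p = 0.0466) and lost without any CTL array or PpargΔ/Δ replicate 2 (adjusted p up to 0.240). None of 20 clock genes was called, and their mean signal ranged from 8.60 to 9.28 over the CTL males against 9.24 and 9.29 in the PpargΔ/Δ males.

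The test favours genes with a small spread within groups, so closeness of the 2 PpargΔ/Δ males in called genes is partly set by the selection. The 2 PpargΔ/Δ males had a median distance of 0.18 in the called increases, 0.13 in the called decreases and 0.12 over all genes. They were more than 2-fold apart in 11 of the 224 higher and in 1 of the 157 lower genes, among them Cyp2a22, Ngp, Ren1, Cyp2b9 and Cyp4a14. The widest distance of all genes, 4.44, was in Sult1e1, the oestrogen sulfotransferase, at 10.21 and 5.77 against 4.83, 5.09 and 5.32 in the CTL males (difference 2.91, SE 1.00, adjusted p = 0.188). Replicate 1 had the higher signal in Sult1e1, Cyp2b9, Cyp2b13, Cyp2a22 and Cyp4a14, and replicate 2 in Ngp, Saa1 and Saa2.

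In the females of 20 weeks, which share no array with the males, 288 genes were higher (1.31%) and 214 lower (0.970%) in PpargΔ/Δ mice. Of the 224 genes higher in males 60 were higher in females too (26.8% of the male and 20.8% of the female list), and of the 157 lower genes 53 were lower (33.8% and 24.8%), and none was called in the opposite direction. Adgrf1 fell by 3.41, Igfbp2 fell by 3.24 and Kyat3 fell by 3.08 in females, and Pparg, Cd36 and Mogat1 rose by 1.44, 1.70 and 2.67. The medians of the female difference over the male lists were 0.31 for the higher and -0.37 for the lower genes, against 0.82 and -0.71 in males. In the bile acid list 5 genes were lower in each sex, and of the PPARα targets 7 were higher in males and 1 in females.

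The test of the difference itself, the interaction of sex and genotype, passed for 17 genes (0.0771%). Of these 6 were called in males and not in females: Hsd3b5, Cyp2b9, Cyp17a1, Nt5e, Mt1 and Mt2. Their female differences lay between -0.79 and 0.29, and the male minus female difference was -5.65 (SE 0.29, adjusted p = 1.43e-05) for Hsd3b5, 6.35 (adjusted p = 0.0122) for Cyp2b9, 1.62 (0.00718) for Cyp17a1, 1.46 (0.00675) for Nt5e, 2.46 (0.0381) for Mt1 and 2.05 (0.0387) for Mt2. In each of the 6 the mean of the PpargΔ/Δ males lay nearer to that of the CTL females than to that of the CTL males. The 6 were called on their distance from these same CTL males, so this nearness is no separate test. For Mt1 the mean of the CTL males was 10.25 ± 0.43 (SD, n = 3), and that of the PpargΔ/Δ males was 12.43 ± 0.45 (SD, n = 2). The CTL females had a mean Mt1 signal of 13.02 ± 0.19 (SD, n = 3). Mybl1 rose in both sexes, by 2.29 in males and 0.62 in females, and differed between them (1.66, adjusted p = 0.00831). The other 10 genes were called in females and not in males, and among them the organic anion carrier Slco1a1 fell by 4.99 in females, with a male difference of -1.45. For the Cyp4a genes, the p53 targets and Mir122 the interaction did not pass (adjusted p = 0.250 for Cyp4a14, 0.0591 for Eda2r and 0.139 for Mir122), so a difference between the sexes is not shown for them.

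**Figure D5:**
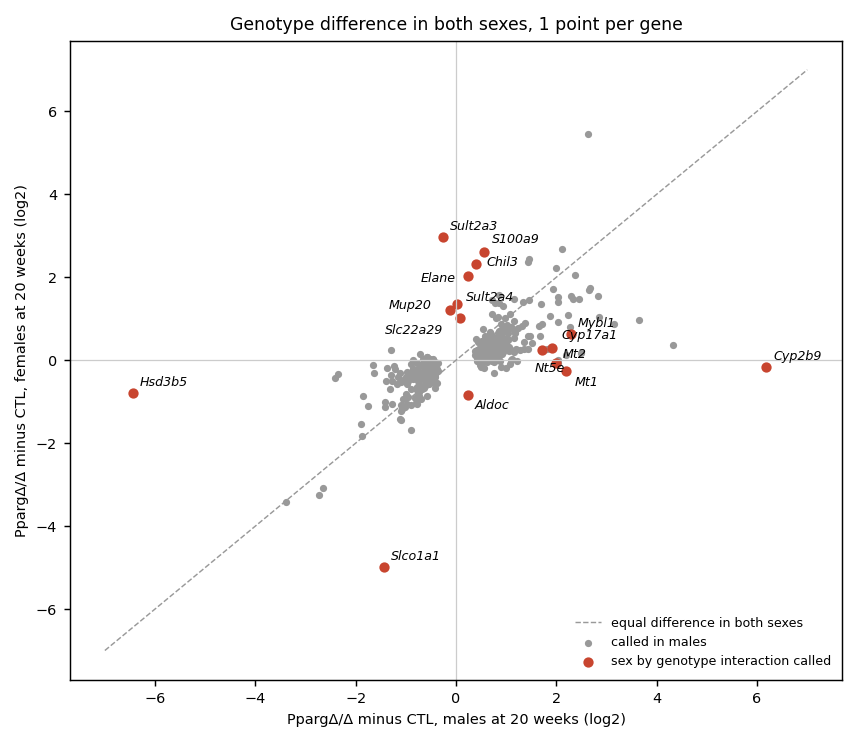
Difference between PpargΔ/Δ and CTL mice of 20 weeks in log2, males (horizontal axis, 2 against 3 mice) and females (vertical axis, 3 against 3), for genes called in males (grey) and those with a called interaction of sex and genotype (red, named). The dashed line marks equal differences; Hsd3b5 and Cyp2b9 lie far out on the male axis and near 0 on the female axis.

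At 7 weeks, without the array whose sex markers went against its label, 714 genes were higher (3.24%) and 201 lower (0.911%) in PpargΔ/Δ males, and 723 and 247 with it. The comparison has no array in common with that of 20 weeks. Of the 224 genes higher at 20 weeks 113 were higher at 7 weeks (50.4% of the older and 15.8% of the younger list; 105 with the array), and of the 157 lower genes 54 were lower (34.4% and 26.9%; 60 with the array), and none was called in the opposite direction in either case. Hsd3b5 fell by 7.39 at 7 weeks (and fell by 7.28 with the array) and Cyp2b9 higher by 6.32 (6.40 with the array). The difference between the ages was not tested, since their signals were normalized separately. Elovl3, a male-biased fatty acid elongase, fell by 3.98 at 7 weeks (adjusted p = 0.0046; and fell by 4.97 with the array) and differed by -0.66 (adjusted p = 0.226) at 20 weeks. Of the 26 male-biased genes 14 were lower at 7 weeks (16 with the array) against 5 at 20 weeks, and of the 32 female-biased genes 14 were higher (17 with the array) against 6. Depp1 and Mir122, lower at 20 weeks, did not pass the test at 7 weeks, where they differed by 0.40 and 0.87 (adjusted p = 0.423 and 0.581; 0.12 and 1.15 with the array). In all, 49 genes were higher and 23 lower in all 3 comparisons, among them Cd36, Mogat1, Pparg, Ptges and Mtnr1a on the higher and Igfbp2, Adgrf1, Kyat3, Avpr1a, Sucnr1, Cyp7b1 and Susd4 on the lower side.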

How the data were processed

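Liver RNA of 3 CTL and 2 PpargΔ/Δ males of 20 weeks was measured on Mouse Gene 1.0 ST arrays. The deposited values were log2 signals that the authors had made with RMA in Affymetrix Expression Console (1.1.2637.26569), separately for the 2 ages, with annotation of NCBIM37. The number of arrays limits the precision. limma (3.58.1, R 4.3.3) was fitted with 4 group means to the 11 arrays of 20 weeks and 22061 genes, and the variances were moderated. The Benjamini-Hochberg adjustment covered the genotype comparisons of both sexes jointly and the interaction by itself. Calls needed an adjusted p below 0.05, whatever the size of the difference. A gene with several clusters was represented by 1 cluster. The rule for named genes took Pparg and the sex check genes, the 20 largest called differences each way with groups that do not overlap, the 5 members of each list with the largest differences, called interactions and liver genes that the study names. It took 219 genes, and the text does not name all of them, so the largest members of a list are not always shown. All other named genes, among them Cyp2u1, Cyp2c38, Ucp2, Stat5b, Apom, Slc22a3, the microRNA genes other than Mir122, paralogs and uncalled pathway members, were chosen after their values were seen. Members, lists and motifs were chosen with earlier results of these data known. The fit was tested on simulated data. Alternatives covered the arrays fitted, moderation, dim genes, a minimum difference, a replicate block and leaving out each array. Results for some genes are not reported here.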

Additional observations from a re-analysis of the deposited data

Results flagged for a closer look

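The effect of genotype differed between males and females of 20 weeks, by the test of the interaction, in 17 genes. The male minus female difference in log2 was -5.65 for Hsd3b5, 6.35 for Cyp2b9, 1.62 for Cyp17a1, 1.46 for Nt5e, 2.46 for Mt1 and 2.05 for Mt2, which were called in males, and 1.66 for Mybl1, called in both sexes. Among the genes called in females it was 3.55 for Slco1a1, 1.07 for Aldoc, -1.32 for Mup20, -0.94 for Slc22a29, -3.23 for Sult2a3 and -1.33 for Sult2a4. It was -1.93 for Chil3, -1.79 for Elane and -2.04 for S100a9, which myeloid cells make. Mup20 has probes that share sequence with related genes.

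The array labelled male PpargΔ/Δ replicate 3 of 7 weeks had an Xist signal of 12.31, against 4.32 to 4.96 in the male controls of that age.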

How the results depend on the processing

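Of the genotype differences at 20 weeks, 224 genes higher and 157 lower, 59 and 43 were called on the 5 male arrays alone, 59 and 57 without moderation of the variances (with 5 interactions in place of 17), and 76 and 35 at a difference of at least 1. With 1 male array left out in turn the counts ran from 123 to 250 higher and from 78 to 199 lower, and from 11 to 35 for the interaction. Higher genes made up 58.8% of the calls, and 50.9% to 68.5% under the alternatives. Same-numbered mice are not stated to be related. Over 2 shared numbers their deviations from the group means correlated at 0.314 and 0.116. CTL replicate 3 and PpargΔ/Δ replicate 2, which share no number, correlated at 0.243. The deviations of the 2 PpargΔ/Δ arrays mirror each other, so each value returns with the opposite sign and the check cannot show a pairing. With the replicate block 196 genes were higher, 157 lower and 15 had an interaction. On the 5 male arrays alone and without moderation the called p53 targets were 2 and 3 of 30 in place of 7. Without the array that went against its label, a choice made after seeing the data, 714 genes were higher and 201 lower at 7 weeks, in place of 723 and 247. Signals near background limit what dim genes, among them the microRNA loci, can show. Genes not called and near 0 changed sign with an array left out: the differences ran from -0.14 to 0.09 for Adipoq, -0.02 to 0.11 for Cyp2d9, -0.21 to 0.11 for Ddx3y, -0.08 to 0.54 for Elane, -0.50 to 0.08 for Fasn, -0.08 to 0.05 for Ghr, -0.03 to 0.03 for Igf1, -0.15 to 0.06 for Mt3, -0.08 to 0.08 for Plin1, -0.16 to 0.03 for Ppara, -0.25 to 0.38 for Sult2a1 and -0.07 to 0.10 for Sult2a4. So did those of Cyp2b10, from -0.01 to 2.70, and Cyp7a1, from -0.11 to 1.11. With array weights the differences were 0.01 for Plin1 and -0.00 for Sult2a4, and with the replicate block -0.03 for Igf1, -0.09 for Sult2a1 and -0.04 for Sult2a4. The cause was not tested.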
